A study of Mus musculus with 2 samples.

Results

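Wnt proteins are secreted, lipid-modified ligands, and the genes that send, receive and restrain their signal were read here in the adult mouse kidney. The set was chosen by name: protein-coding genes whose symbol is Wnt, Fzd, Sfrp, Dkk or Rspo followed by a number, together with Dkkl1, Lgr4, Lgr5, Lgr6, Lrp5, Lrp6, Axin1, Axin2, Znrf3, Rnf43, Lef1, Tcf7, Tcf7l1, Tcf7l2 and Wif1. This gave 56 genes of the 21474 protein-coding genes and 43346 genes in the tables. The study has 1 group, whole kidney of C57BL/6J mice, an inbred laboratory strain, at 8 weeks, with no treatment and no introduced allele named. It holds 2 polyadenylated RNA libraries, replicate 1 and replicate 2, each labelled as a pool of littermates of both sexes. The labels number them as biological replicates but name the same donor for the pair, and its health state is listed as unknown, so whether they came from separate animals is not clear from the labels. With no second group there is no contrast between conditions, and each comparison below sets the reads of 1 library against those of the other.

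In the canonical branch, a Wnt bound to a Frizzled receptor and to Lrp5 or Lrp6 stops the Axin-containing destruction complex from degrading beta-catenin, which then acts with TCF/LEF factors in the nucleus. Secreted Sfrp, Dkk and Wif1 proteins restrain this, while R-spondins bound to Lgr receptors hold off the ligases Znrf3 and Rnf43, which remove Frizzled from the cell surface. In the kidney, Wnt9b and Wnt4 are known for starting nephron formation in the embryo, Wnt11 for ureteric branching and Wnt7b for the medulla.

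Summed over genes, replicate 1 holds 67252609 expected counts and replicate 2 holds 87330097. An expected count is the deposited estimate of fragments per gene, and TPM is the deposited level per transcript length, scaled to a common sum. Kidney markers were present in both libraries, with 7 of 7 proximal tubule, 5 of 5 thick ascending limb and 6 of 6 collecting duct principal cell genes at 1 TPM or more. The libraries stood apart in markers of other cells. Replicate 2 had summed skeletal muscle markers of 739 TPM against 2.84 TPM in replicate 1, T cell markers of 47.4 against 7.46 TPM, and B cell markers of 42.6 against 4.35 TPM. Replicate 1 had the higher sums of adrenal gland markers, 57.4 against 11.3 TPM, and of smooth muscle markers, 238 against 99.1 TPM. The Y-linked genes Ddx3y, Eif2s3y and Uty were at 0 in both libraries, and Kdm5d was at 0 and 0.01 TPM, although both libraries are labelled as pools of both sexes. The same marker list also holds the X-inactivation gene Xist, and it summed to 26.8 TPM in replicate 1 and 31.4 TPM in replicate 2. Of 1569 genes on chromosome Y, 1 had a count in replicate 1 and 9 in replicate 2. The cause of these values was not tested.

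2 of the TCF/LEF genes, Lef1 and Tcf7, carried the largest called differences between the libraries among the 56 genes, and their transcripts differ at the start, so those starts are shown first. Lef1-203 begins 2326 bases downstream of Lef1-201 on chromosome 3 (GENCODE M21, GRCm38, plus strand). Of its 993 coding bases, 984 are shared with Lef1-201, and 9 are its own. It lacks the 207 bases of the first coding exon of Lef1-201, at chr3:131111472-131111678. The N terminus of TCF/LEF factors is known as the part that binds beta-catenin. Below are those 207 coding bases, and the first 30 coding bases of Lef1-203, whose own 9 lie at chr3:131112812-131112820. Capitals mark the ATG.
Lef1-201: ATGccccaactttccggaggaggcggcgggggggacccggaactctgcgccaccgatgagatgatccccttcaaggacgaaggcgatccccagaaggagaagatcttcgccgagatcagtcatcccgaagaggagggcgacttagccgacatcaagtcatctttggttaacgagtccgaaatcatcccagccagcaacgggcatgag
Lef1-203: ATGgcaggggtggtcagacaagccccgtcc

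The next pair are 250 bases each from RefSeq on GRCm38.p6. The Lef1 stretch (chr3:131112541-131112790, plus strand) ends just before the RefSeq start at 131112791, which is 6 bases upstream of the first base of Lef1-203 in GENCODE M21. The Tcf7 stretch (chr11:52283015-52283264, minus strand) ends just before the start of Tcf7-202. Neither stretch overlaps an exon of GENCODE M21. Both are shown because both genes were called higher in replicate 2. In the Tcf7 stretch, capitals mark an ATG 165 bases before the start. No letters are marked in the Lef1 stretch.
Lef1: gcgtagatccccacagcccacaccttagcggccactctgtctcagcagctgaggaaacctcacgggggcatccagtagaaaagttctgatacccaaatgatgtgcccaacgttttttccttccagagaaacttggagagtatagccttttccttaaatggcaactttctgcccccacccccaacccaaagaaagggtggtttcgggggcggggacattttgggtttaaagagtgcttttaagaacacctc
Tcf7: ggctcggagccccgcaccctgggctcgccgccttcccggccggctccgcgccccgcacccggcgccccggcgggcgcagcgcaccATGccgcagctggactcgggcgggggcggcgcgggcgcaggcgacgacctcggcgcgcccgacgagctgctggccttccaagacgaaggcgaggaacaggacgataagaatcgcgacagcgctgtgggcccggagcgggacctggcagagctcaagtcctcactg

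The Tcf7 stretch was 76% G and C, against a median of 52.4% over all RefSeq windows. From its ATG, 55 codons, the ATG included, run without a stop up to the Tcf7-202 start, which 8.55% of 32851 windows match or exceed in length. Read on through the spliced Tcf7-202, the frame holds no stop for a further 183 bases and meets the annotated coding start in frame. From that ATG the first stop comes after 419 codons, against 303 annotated coding codons. Aligned with the first coding exon of Lef1-201, 29 of 52 encoded residues were identical, the first 4 among them. Of the 2808 windows with an open stretch at least as long, 1, that of Tcf7 itself, reached this alignment score. The limit was the Tcf7 score itself and both genes are TCF/LEF factors, so this count is a description and no test. The deposited tables hold no Tcf7 transcript with these bases, so a form that uses them has no value here. The TCF/LEF core words CTTTGAT and CTTTGAA were searched on both strands, and no position can match both. They occurred in 3 of 46 RefSeq windows of the set (6.52%), those of Wnt11, Wnt5b and Dkk1, against 8.65% of all windows. These windows belong to 37 of the 56 members, 20 of them detected, and the other members were not searched. By gene the share was 8.11%, against 9.88% of all genes with a window. A match is a description of letters only.

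At 1 TPM or more in both libraries, called detected here, were 32 of the 56 genes (57.1%), beside 57.2% of all protein-coding genes. The share was thus near that of coding genes in general. A further 2 genes reached 1 TPM in 1 library only: Wnt16 had 1.11 TPM in replicate 1 and 0.90 TPM in replicate 2, and Lef1 had 0.87 and 3.31 TPM. Another 13 genes stayed under that limit with 10 or more counts in both libraries, 5 had fewer counts, and 4 had none. The median of the mean TPM was 7.61 for the detected members and 13.3 for detected protein-coding genes. TPM values of replicate 2 ran lower in general, with a median log2 TPM ratio of replicate 2 over replicate 1 of -0.19 over detected protein-coding genes. For the detected members that median was -0.45, and 28 of 32 had the lower TPM in replicate 2 (87.5%, against 72.4% of detected protein-coding genes). Calls between libraries below therefore use counts after TMM scaling, a correction for library composition, and the TPM values show levels between genes. Where TPM is set between libraries below, it is the deposited value without that correction. In whole tissue, fewer cells of a type and less RNA per cell cannot be told apart.

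**Figure D1:**
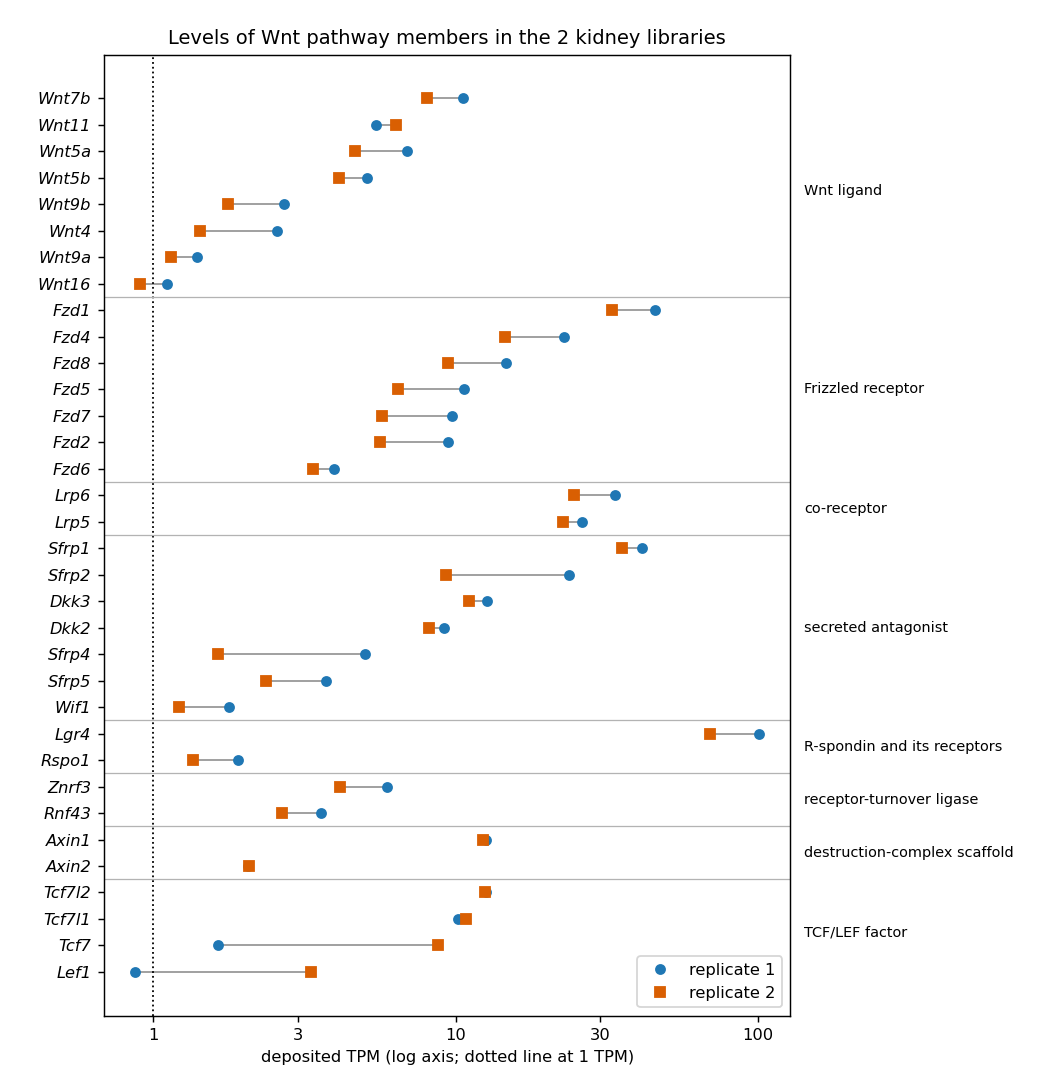
Deposited TPM (log axis) of the members that reached 1 TPM in at least 1 library, ordered by role and mean level, with circles for replicate 1, squares for replicate 2 and a line joining them. Lgr4 lies highest at 101 and 69.5 TPM, and Tcf7 and Lef1 are the members with the clearest gap in favour of replicate 2.

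Among the ligands, 7 of 19 Wnt genes were detected, and summed TPM was 38.5 in replicate 1 and 30.5 in replicate 2. Wnt7b, on chromosome 15 (85535437 to 85582473, minus strand), was highest at 10.6 and 8.06 TPM, with 1795 and 1905 counts. Its range did not overlap that of any other Wnt gene, and it held 27.4% and 26.4% of the summed ligand TPM. Wnt5a, a ligand best known for beta-catenin-independent signalling, had 6.91 and 4.64 TPM. Wnt11, on chromosome 7 (98835112 to 98855195, plus strand), had 5.43 and 6.32 TPM and was the only detected ligand that was higher in TPM in replicate 2. Wnt5b, a close relative of Wnt5a, had 5.09 and 4.10 TPM. The ranges of Wnt11 and Wnt5a overlapped, as did those of Wnt5a and Wnt5b, while Wnt11 lay above Wnt5b without overlap. Within each library Wnt5a was above Wnt5b in gene TPM. This order did not hold over protein-coding transcripts alone. There Wnt11 had 4.52 TPM in replicate 1 and 4.98 in replicate 2, Wnt5b 5.09 and 4.11, and Wnt5a 4.39 and 3.6. The ranges of Wnt11 and Wnt5b then overlapped, and Wnt5a was below Wnt5b within each library.

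The nephron-forming ligands of the embryo stood lower. Wnt9b had 2.70 TPM in replicate 1 and 1.77 TPM in replicate 2, and Wnt4 had 2.56 and 1.42 TPM. Their ranges overlapped each other and lay below those of the 4 higher ligands. Wnt9a followed at 1.39 and 1.14 TPM, in an interval that did not overlap that of Wnt4.

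The other ligands were scarce. Wnt10a had 111 counts in replicate 1 and 131 in replicate 2 (0.91 and 0.78 TPM), and Wnt2b had 157 and 155 counts (0.87 and 0.62 TPM). Wnt2 had 30 and 53 counts, Wnt6 37 and 20, Wnt10b 16 and 14, and Wnt8b 14 and 20. Wnt7a (6 and 5 counts), Wnt1 (4 and 0) and Wnt3 (2 and 0) lay lower still, and they are named although they had under 10 counts. Wnt3a, a classical activator of the canonical branch, and Wnt8a had 0 counts in both libraries. A 0 still permits up to 3 counts per library, which is 0.0446 CPM (counts scaled to library size) in replicate 1 and 0.0344 CPM in replicate 2.

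8 of the Wnt genes lie in 4 neighbouring pairs, and the paired genes differed in level. Wnt9b and Wnt3 face away from each other on chromosome 11 with 24328 bases between them, at 625 and 569 counts for Wnt9b against 2 and 0 for Wnt3. Wnt9a and Wnt3a, 16175 bases apart on the same chromosome, had 233 and 264 counts against 0 and 0. Wnt10a and Wnt6, 6193 bases apart on chromosome 1 and on the same strand, had 111 and 131 counts against 37 and 20. Wnt10b and Wnt1, 11706 bases apart on chromosome 15, were both low. Thus in 3 of the 4 pairs the same gene was clearly the more abundant in both libraries.

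For the receptors, 7 of 10 Frizzled genes were detected, with summed TPM of 118 in replicate 1 and 79.6 in replicate 2. Fzd1, on chromosome 5 (4753839 to 4758035, minus strand), was highest at 45.5 and 33.0 TPM, with 9665 and 9708 counts. It held 38.4% and 41.4% of the Frizzled sum, and its range lay apart from that of every other Frizzled gene. Fzd4, also known as the receptor for Norrin in blood vessels, had 22.9 and 14.5 TPM. Fzd8 had 14.7 and 9.46 TPM, and Fzd5 had 10.6 and 6.43 TPM. Fzd7 at 9.74 and 5.71 TPM and Fzd2 at 9.40 and 5.60 TPM were close together. Fzd6, known from planar polarity, had 3.97 and 3.37 TPM.

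The order Fzd1, Fzd4, Fzd8, Fzd5, Fzd7, Fzd2, Fzd6 was the same in both libraries. Between the libraries the ranges of neighbours from Fzd4 to Fzd2 overlapped, while Fzd6 lay below them all. The 3 other Frizzled genes were below 1 TPM in both libraries: Fzd3 at 195 and 253 counts, Fzd9 at 57 and 86, and Fzd10 at 24 and 30.

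Both co-receptors were detected. Lrp6 had 33.5 TPM in replicate 1 and 24.7 TPM in replicate 2, and Lrp5 had 26.1 and 22.7 TPM. Their ranges overlapped. By counts they were close between libraries, with a scaled ratio of replicate 2 over replicate 1 of 1.01 for Lrp6 (95% exact interval 0.986 to 1.03) and 1.03 for Lrp5 (0.997 to 1.07).

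The Sfrp and Dkk genes, Dkkl1 and Wif1 were grouped by name as secreted antagonists, and antagonism by each was not tested. Of these 10 genes, 7 were detected, with summed TPM of 97.9 in replicate 1 and 69.4 in replicate 2. Sfrp1, which carries a Frizzled-like domain and binds Wnts, was highest at 41.4 and 35.4 TPM and held 42.3% and 50.9% of the sum. Sfrp2 had 23.6 and 9.27 TPM, after Sfrp4 the widest gap between libraries, as a ratio of TPM, among the detected antagonists. Dkk3, a divergent member of its family, had 12.7 and 11.1 TPM, and Dkk2, a ligand of Lrp5 and Lrp6, had 9.15 and 8.17 TPM. Sfrp1 lay above the others without overlap, and Dkk3 above Dkk2.

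Lower in this role were Sfrp4 at 5.01 and 1.64 TPM, Sfrp5 at 3.73 and 2.36 TPM, and Wif1, which binds Wnts directly, at 1.78 and 1.21 TPM. Dkkl1 had 15 and 17 counts. Dkk1, the best known Lrp6 antagonist, had 8 counts in replicate 1 and 2 in replicate 2, and Dkk4 had 0 in both. By mean TPM, Sfrp1, Sfrp2, Dkk3 and Dkk2 thus led this role. Over protein-coding transcripts alone, Sfrp2 had a mean of 7.125 TPM, below Dkk3 at 11.89 and Dkk2 at 8.66 TPM.

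In the R-spondin arm, Lgr4 was the highest of all 56 genes, at 101 TPM in replicate 1 and 69.5 TPM in replicate 2, with 12685 and 14447 counts. It lies on chromosome 2 (109917647 to 110014257, plus strand), and its mean TPM exceeded that of 88.5% of detected protein-coding genes. Lgr4 held 97.0% and 95.9% of the summed TPM of R-spondins and their receptors. The other receptors were low, Lgr5 at 99 and 118 counts (0.45 and 0.64 TPM) and Lgr6 at 94 and 190 counts (0.32 and 0.49 TPM). Lgr5 marks stem cells in several epithelia. Of the ligands, Rspo1 alone was detected, at 1.90 and 1.35 TPM, while Rspo3 had 52 and 75 counts, Rspo4 had 2 and 1, and Rspo2 had 0 in both libraries. Lgr4 thus lay far above the ligands in both libraries, while Lgr5 and Lgr6 lay below Rspo1.

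The ligases that R-spondins hold off were both detected, Znrf3 at 5.94 and 4.13 TPM and Rnf43 at 3.57 and 2.66 TPM. Among the scaffolds of the destruction complex, Axin1 had 12.6 and 12.3 TPM, and Axin2, which is widely used as a readout of canonical signalling, had 2.06 and 2.07 TPM. These 4 genes kept their order in both libraries. Of the TCF/LEF factors, Tcf7l2 had 12.6 and 12.5 TPM and Tcf7l1 had 10.2 and 10.8 TPM, values close between the libraries. Tcf7 had 1.63 and 8.71 TPM, and Lef1 had 0.87 and 3.31 TPM, so the rank of these 4 was the same but the distances were not.

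The comparison of the libraries asked which members differed beyond counting error. Counts, rounded to whole numbers, were set against each other by a two-sided exact binomial test for every gene with 10 or more counts in sum, and a difference was called at a Benjamini-Hochberg adjusted p below 0.05 and a change of 2-fold or more. Of 49 members tested, 2 were called higher in replicate 2, where 5.62% of all genes tested were, and 2 were called lower, where 2.59% of all genes tested were. The shares among the members were near this background. The median log2 ratio of replicate 2 over replicate 1 was -0.12 for the members and 0.02 for all genes tested. The test covers counting error only and says nothing of a condition.

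Tcf7, on chromosome 11 (52252371 to 52283014, minus strand), had 175 counts in replicate 1 and 1237 in replicate 2. Its scaled ratio was 5.74 (95% exact interval 4.89 to 6.76, adjusted p = 1.29e-150 by the exact binomial test). Lef1, on chromosome 3 (131110471 to 131224356, plus strand), had 120 and 603 counts. The ratio for Lef1 was 4.08 (3.35 to 5.0, adjusted p = 6.99e-57 by the exact binomial test). Both factors are known from T cell development as well as from Wnt signalling. Tcf7l2 and Tcf7l1, of the same family, had ratios of 0.993 (0.929 to 1.06) and 1.21 (1.13 to 1.29) and were not called.

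T cell markers moved with Tcf7 and Lef1. All 10 listed T cell markers were called higher in replicate 2, with a summed TPM of 7.46 in replicate 1 and 47.4 in replicate 2, and none was at 0 in both libraries. Cd3e, a subunit of the T cell receptor complex, had 22 and 199 counts, and Lck, its proximal kinase, had 157 and 1051. All 5 B cell markers were called higher as well, from 4.35 to 42.6 TPM in sum. The 8 skeletal muscle markers were likewise all called higher, where 5.62% of all genes tested were. The part of these cells in the Tcf7 and Lef1 values was not tested.

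Sfrp4, on chromosome 13 (19623104 to 19632994, plus strand), had 417 counts in replicate 1 and 190 in replicate 2. Its scaled ratio was 0.370 (95% exact interval 0.310 to 0.440, adjusted p = 2.31e-31 by the exact binomial test). Wnt6, on chromosome 1 (74771892 to 74785322, plus strand), had 37 and 20 counts. Its ratio was 0.439 (0.241 to 0.776, adjusted p = 0.0064 by the exact binomial test), from few counts. Sfrp2, on chromosome 3 (83766321 to 83774316, plus strand), had 1228 and 758 counts, a ratio of 0.501 (0.457 to 0.549). With a log2 ratio of -0.997 it lay just outside the call (adjusted p = 5.1e-51 by the exact binomial test).

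Of 4 smooth muscle markers, 2 were called lower in replicate 2, Acta2 at 12949 and 7246 counts and Cnn1 at 709 and 175, and the list summed to 238 and 99.1 TPM. Of 10 adrenal gland markers, 9 were tested, of which 7 were called lower and 2, Th and Dbh, higher. That list summed to 57.4 and 11.3 TPM. Over all genes tested, 2.59% were called lower and 5.62% higher. The 7 stroma and pericyte markers summed to 238 and 196 TPM, and none was called. Whether any of these bears on Sfrp4, Sfrp2 or Wnt6 was not tested. Genes that overlap Tcf7, Sfrp2 or Wnt6 in the annotation had at most 2 counts in a library. Wnt5b overlaps Fbxl14 on the other strand, at 5454 and 5257 counts, and the sources used here do not state whether counting used strand.

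**Figure D2:**
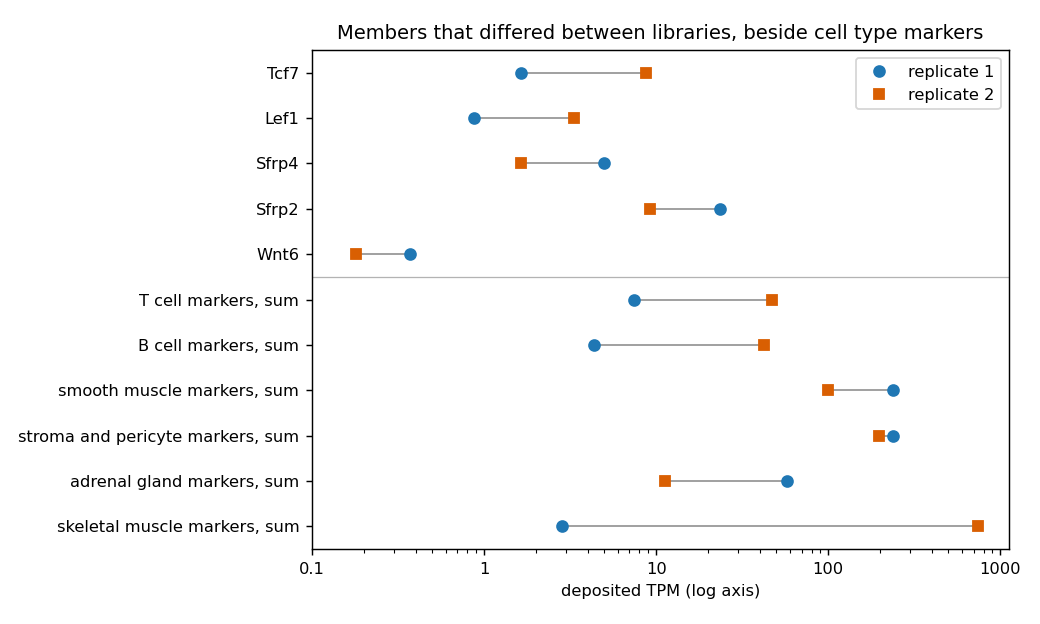
Deposited TPM (log axis) of the called members and Sfrp2, above the line, and the summed TPM of 6 marker lists, below it, with circles for replicate 1 and squares for replicate 2. Tcf7 and Lef1 lie higher in replicate 2, as do the T cell, B cell and skeletal muscle sums. Sfrp4, Sfrp2 and Wnt6 lie higher in replicate 1, as do the smooth muscle, stroma and adrenal gland sums. TPM ran lower in replicate 2 in general. The stroma sum had a ratio of replicate 2 over replicate 1 of 0.826. Marker lists not drawn had ratios from 0.619 for distal convoluted tubule to 1.19 for macrophage.

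The other 45 tested members were not called. Over all 49, the exact 95% interval of the ratio lay below 1 for 19 members (38.8%), where it did so for 28.6% of all genes tested. It lay above 1 for 7 members (14.3%), where it did so for 31.8% of all genes tested, and it held 1 for 23. These intervals narrow with the count, and among detected protein-coding genes 35.4% lay below 1 and 36.6% above. The 49 tested members include genes that were not detected, so 38.8% and 14.3% are not on that base. Of the 19 members below 1, all but Wnt6 were among the 32 detected. Of the 7 above 1, all but Lgr6 and Lef1 were. Of the 7 detected Frizzled genes, a group singled out after its values were seen, 6 had an interval below 1, with ratios from 0.660 for Fzd7 (0.621 to 0.702) to 0.815 for Fzd1 (0.793 to 0.839). Fzd6 had a ratio of 0.956 (0.871 to 1.05). Wnt4 had a ratio of 0.624 (0.548 to 0.709), and Wnt11 went the other way at 1.35 (1.16 to 1.57). Lgr6 had a ratio of 1.64 (1.27 to 2.12). Lgr4, the highest member by mean TPM, had a ratio of scaled counts of 0.924 (0.903 to 0.947), beside a ratio of TPM of 0.689. By TMM-scaled CPM, which is not per length, Lrp6 (177 and 179) and Lgr4 (184 and 170) were close, with Lrp6 the higher on average. Axin2 had a ratio of 1.25 (1.10 to 1.44) at equal TPM.

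**Figure D3:**
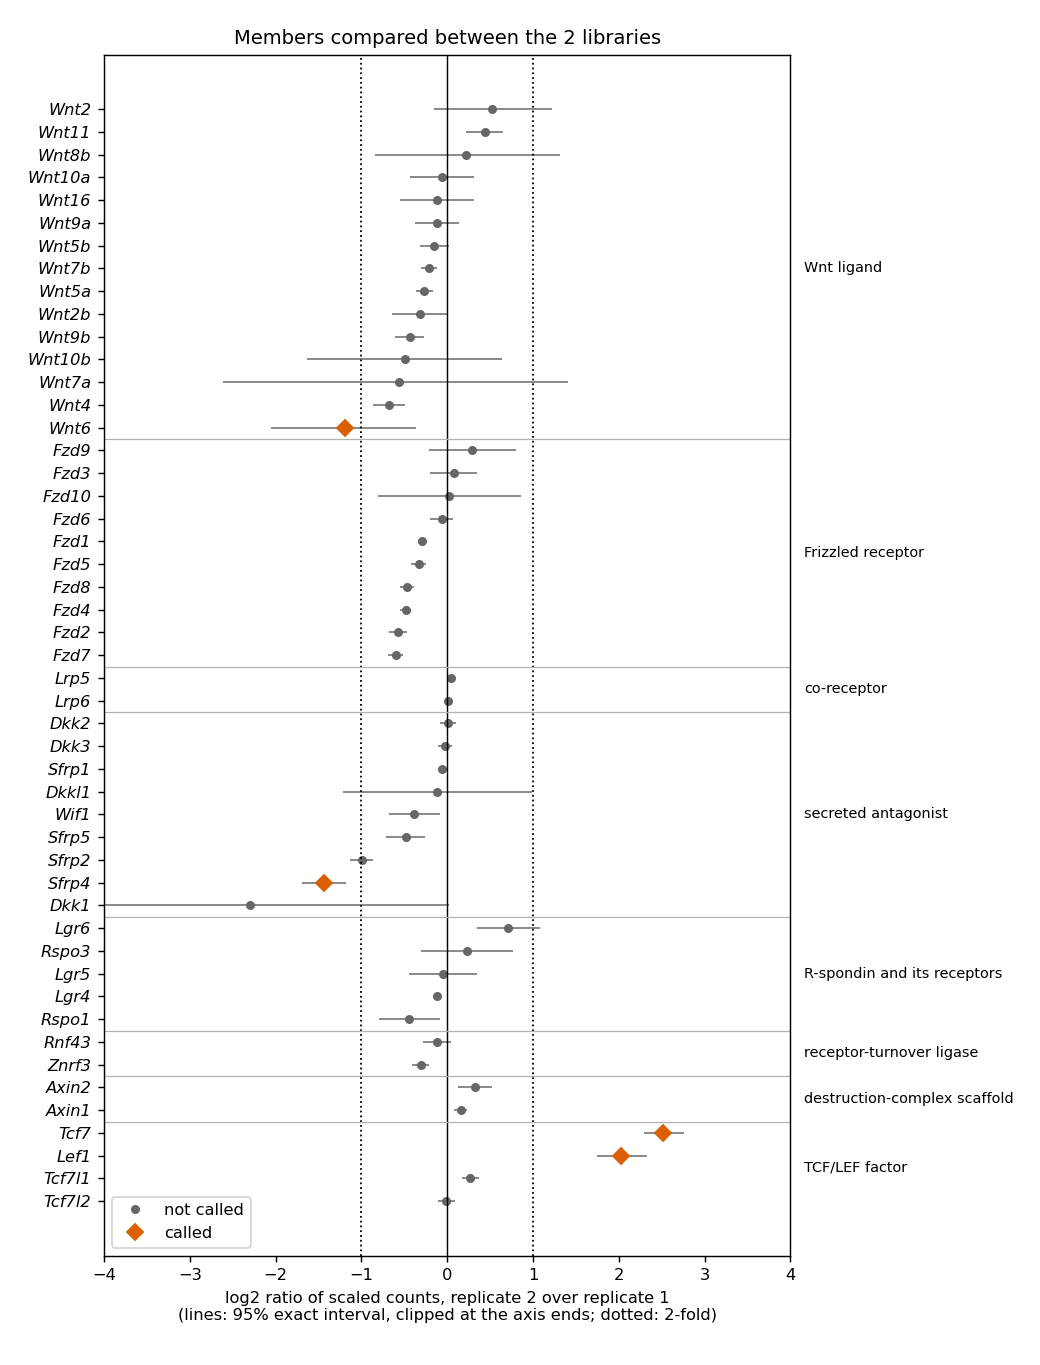
Log2 ratio of scaled counts, replicate 2 over replicate 1, for the 49 members tested, by role, with lines for the 95% exact interval of counting error and dotted lines at 2-fold. The 4 called members are diamonds, Tcf7 and Lef1 to the right and Sfrp4 and Wnt6 to the left, and 6 of the 7 detected Frizzled genes have intervals to the left of 0, beside 35.4% of detected protein-coding genes.

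The transcript tables show which forms carry these levels. Of the detected members, 12 have 1 transcript in the tables and 20 have more. For 18 of the 20 the highest transcript by TPM was the same in both libraries, and for 18 it was annotated as protein-coding. The exceptions to the latter were Lgr4 and Sfrp2. Lgr4-204, a processed transcript of 750 bases, held 57.9% of the Lgr4 TPM in replicate 1 and 47.7% in replicate 2, but 13.5% and 9.47% of its expected counts. It was highest by mean TPM and in replicate 1, whereas in replicate 2 the protein-coding Lgr4-201 was higher at 51.2%. Over protein-coding transcripts alone Lgr4 had 42.1 and 36.2 TPM, so Fzd1 then had the highest mean of all members. For Sfrp2, the 600-base processed transcript Sfrp2-202 held 59.1% and 50.5% of TPM, and 24.1% and 18.6% of counts. Over its protein-coding transcripts Sfrp2 had 9.66 and 4.59 TPM.

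Among the receptors, Lrp5-203, annotated as subject to nonsense-mediated decay, held 47.6% of the Lrp5 TPM in replicate 1 and 38.1% in replicate 2. Over protein-coding transcripts Lrp5 had 13.2 and 13.7 TPM, close to each other and lower than the gene's 26.1 and 22.7 TPM. Fzd5-202 and Fzd5-201, both of 1755 coding bases but of 2895 and 6915 bases in all, held 69.0% and 31.0% of TPM in replicate 1 and 52.9% and 47.1% in replicate 2. For Wnt11, the 634-base Wnt11-203 with 297 coding bases was highest by TPM at 51.7% and 47.1%, whereas Wnt11-205 with 1062 coding bases was highest by counts at 48.4% and 47.9%. The short forms thus weigh more in TPM than in reads.

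For Lef1, the transcript without the first coding exon of Lef1-201, shown above, was the most abundant single transcript. Lef1-203 had 0.49 TPM in replicate 1 and 2.31 TPM in replicate 2, or 56.3% and 69.8% of the gene, and Lef1-201 had 0.29 and 0.89 TPM. Both were higher in replicate 2. By expected counts the share of Lef1-203 was 45.7% and 59.9%, from 54.8 and 361 counts. Lef1-202 and Lef1-204 have the same coding start as Lef1-201. Lef1-201 had 50.6 counts in replicate 1 and 216 in replicate 2, Lef1-202 had 12.2 and 0, and Lef1-204 had 0 and 24.5. Together these forms exceeded Lef1-203 in counts in replicate 1 and lay below it in replicate 2. For Tcf7, Tcf7-201 and Tcf7-202 share all 909 coding bases and start 443 bases apart. Tcf7-201 had 1.03 and 4.36 TPM and Tcf7-202 had 0.60 and 4.35 TPM, so both transcripts were higher in replicate 2. These are estimates for whole transcripts, and reads at each start were not counted. For Tcf7l2, the transcript estimates differed where the gene did not: Tcf7l2-201 had 560 expected counts in replicate 1 and 0 in replicate 2, and Tcf7l2-202 had 152 and 850.

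**Figure D4:**
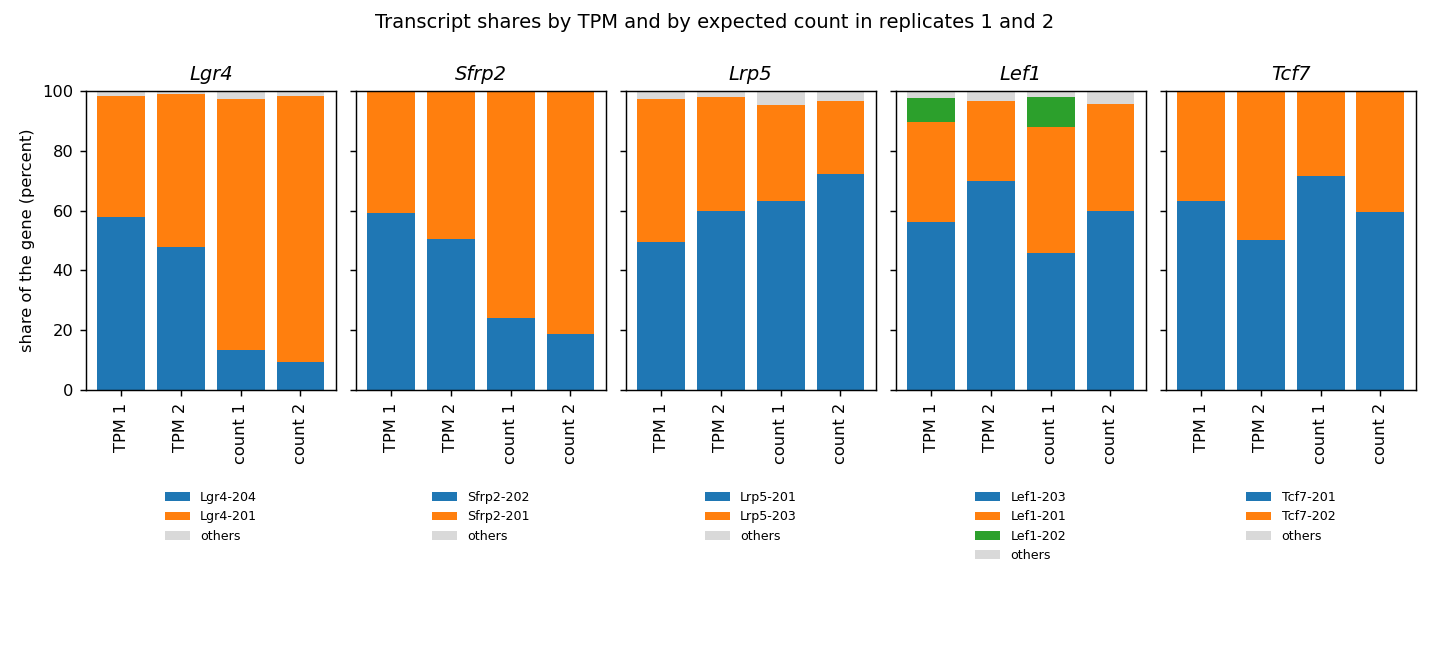
Share of each gene held by its transcripts (percent), by TPM and by expected count in replicates 1 and 2, with transcripts under 10% throughout drawn together in grey. Lgr4-204 and Sfrp2-202 take far more of the TPM than of the counts, and Lef1-203 holds more of the Lef1 TPM than Lef1-201 in both libraries.

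The other genes of the pathway were read from 7 lists. Beside the calls in these lists, 5.62% of all genes tested were called higher in replicate 2 and 2.59% lower. Of 8 genes for ligand maturation and release, all were detected and none was called between libraries. The highest were the heparan sulfate proteoglycans Sdc4 at 150 and 140 TPM and Gpc4 at 75.3 and 64.9 TPM, and Wls, the carrier that takes Wnts to the cell surface, at 42.1 and 44.8 TPM. Of 12 other receptors and co-receptors, 9 were detected and none was called, with Ryk, a Wnt-binding receptor, highest at 31.8 and 28.3 TPM. Adgra2, a co-activator of Wnt7 signalling in vessels, had 23.7 and 17.6 TPM, and Kremen1, a Dkk receptor, had 17.5 and 14.3 TPM.

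Of 11 other secreted or membrane inhibitors, 9 were detected and 1 was called, Draxin, at 6 and 28 counts. Igfbp4, an IGF-binding protein that also binds Frizzled and Lrp6, had 887 and 765 TPM. Sostdc1, an Lrp-binding antagonist, had 49.9 and 43.7 TPM, and Notum, which removes the lipid from Wnts, had 20.2 and 16.8 TPM. Igfbp4 therefore stood above every member of the set.

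In the cytoplasm, 22 of 25 relay genes were detected and none was called. Csnk2b, a casein kinase subunit, had 335 and 314 TPM, Dvl1, a Dishevelled scaffold, had 134 and 81.1 TPM, and Gsk3a, a kinase of the destruction complex, had 95.4 and 83.4 TPM. In the nucleus, 15 of 17 partners were detected and none was called. Genes of the Groucho family led, Aes at 1247 and 972 TPM, Tle2 at 71.8 and 42.2 TPM, and Tle3 at 39.2 and 31.2 TPM. Of 22 genes of the planar polarity and calcium branch, 20 were detected. Celsr2, an adhesion receptor of planar polarity, had 52.1 and 40.0 TPM, Scrib had 32.4 and 21.7 TPM, and Camk2d, a calcium-dependent kinase, had 16.4 and 16.0 TPM. Celsr3 was called higher in replicate 2 by counts, at 18 and 48, although its TPM was 0.14 and 0.12.

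Of 21 genes described elsewhere as transcriptional targets, 13 were detected, and 7 of the 21 are members of the set. Ccnd1, a cyclin of the G1 phase, had 104 and 90.7 TPM, Bmp4, a signalling ligand, had 30.1 and 23.4 TPM, and Notum followed at 20.2 and 16.8 TPM. Of 18 tested, 3 were called higher in replicate 2, where 5.62% of all genes tested were. They were Tcf7 and Lef1, the members called above, and Cd44, an adhesion receptor that leukocytes also carry, at 203 and 511 counts. Axin2, Znrf3, Rnf43 and Nkd1 were not called. Cdx2 and Mmp7 had 0 counts in both libraries.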

How the data were processed

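The deposited gene and transcript tables (mm10, annotation M4, per the files' text records) give an expected count, a fractional estimate of fragments. Per the file headers they also give TPM, FPKM, posterior mean TPM, an SD of each count (a signal value of the quantification, at most 0.27 counts for a member) and the share of each isoform in percent, all made by the authors. No source used here names the aligner or quantifier. Names, types and positions came from GENCODE M21, joined on the identifier without its version. Of 156 member transcripts, 155 were found there and 131 had the same length. Left out were 97 spike-ins (1.59% and 2.29% of counts) and 26248 rows whose identifier is a bare number, which held no counts.

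Detected means 1 TPM or more in both libraries. Counts were rounded and scaled by TMM factors of 1.03 and 0.974 (edgeR 4.0.16, R 4.3.3), then compared by a two-sided exact binomial test with Benjamini-Hochberg adjustment over all 18723 genes with 10 or more counts in sum. A quasi-likelihood test has no contrast here. Intervals are 95% Clopper-Pearson intervals and, like the limit of 3 counts for a 0, cover counting error only. DESeq2 1.42.0 size factors, other limits and other units served as alternatives. The test was checked on simulated data. Every detected member was named, and lower ones with 10 or more counts in both, at 0 in both, at 1 TPM or more in 1 library or called. Of each pathway list the 3 highest, those at 0 and those called were named. The members and lists were chosen with earlier results of these data known. The symbols Tiki1, Gpr124 and Tle5 found no match. Upstream sequences are RefSeq windows of 250 bases before and 50 after a start. Residues were aligned in Biopython 1.88 with the BLOSUM62 matrix. Tables on mm9 and protein features were not used here.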

Additional observations from a re-analysis of the deposited data

How the results depend on the processing

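Of 93 alternative values for counts and sums, 80 stayed within a margin and 13 moved. The margin was 1.5-fold for counts and 1 SD over the 2 libraries for sums. A sum from 1 library alone lies within that SD by construction, so leaving a library out could not move a sum. The log2 ratios of Tcf7, Lef1, Sfrp4, Wnt6 and Sfrp2 kept their sign under each alternative. Rescaling TPM over nuclear protein-coding genes raised every summed level by construction, to 49.6 for Wnt ligands, 142 for Frizzled receptors, 76.9 for co-receptors, 120 for secreted antagonists, 126 for R-spondins and their receptors, 11.7 for the ligases, 21 for Axin genes and 44.5 for TCF/LEF factors. Over protein-coding transcripts alone, an alternative chosen after seeing the data, the sums were 38.3 for co-receptors, 41.8 for R-spondins and their receptors and 14.0 for Axin genes, and Tcf7l1 rather than Tcf7l2 led its role. By TMM-scaled CPM, also chosen then, Tcf7l1 led its role and Lrp6 all members. The posterior mean TPM gave 15.0 for Axin genes. At 1.5-fold or more, 8 members were called, with Fzd7, Lgr6, Sfrp2 and Wnt4 added, beside 14.5% of all genes tested. Sfrp2 was called with DESeq2 size factors (log2 ratio -1.01) and with library totals alone (-1.07), and Dkk1 with the latter. On log2(TPM + 1), with no test, Wnt6 was at -0.22 and under 2-fold, and Sfrp2 was at -1.26. Tcf7, Lef1 and Sfrp4 were called under every alternative with a test, and passed 2-fold on log2(TPM + 1).

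With 1 library left out, 33 members were at 1 TPM or more in either remaining library. A comparison between libraries then has no value. No paired analysis was possible because the labels give only 1 group. Ranges cover only the spread of these 2 libraries, and counts under 10 limit Wnt1, Wnt3, Wnt7a, Dkk1 and Rspo4.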
